A study of Danio rerio with 69 samples.

Results

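The genes described here encode RNA splicing factors and related RNA-binding proteins of the zebrafish (Danio rerio), measured in pineal gland and brain. They were chosen by the start of the gene symbol on the array platform: srsf or sfrs, snrp, hnrnp or hnrp, sf3, u2af, prpf, lsm and rbm. Of 8793 genes with a single platform symbol, 101 matched, represented by 130 of the 15502 non-control probe sets, and where a gene had several probe sets the one with the highest mean was read. They comprised 24 RBM genes, 20 hnRNP genes, 13 SR genes, and 11 each of the snrp, LSm, PRPF and combined SF3 and U2AF groups. The choice by name used no measured difference between groups, but the families and members were chosen with earlier results of these data known.

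The series held 69 one-colour Affymetrix Zebrafish Genome Arrays in 20 groups, 1 array for each sample. All fish carried a transgene in which the aanat2 promoter drives green fluorescent protein (GFP), and the glow guided dissection of the pineal by hand. Brain was taken without the pineal and the eyes. The fish were 3, 5 or 10 days old (called larval here) or 3 months or 1 to 2 years old (called adult), tissue of each age was taken in the day and in the night, and the fish were kept on 14 h of light and 10 h of dark at 28.5 °C. Larval pineal had 24 arrays, adult pineal 14, larval brain 19 and adult brain 12, with 2 to 5 arrays in a group of 1 age, tissue and sampling time. The sources used here do not give the strain or the number of fish in a sample.

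Introns are removed from pre-mRNA by the spliceosome, which assembles from small nuclear ribonucleoproteins (snRNPs), each built on a small RNA wrapped by a ring of Sm or LSm proteins. The U1 particle recognises the start of an intron, U2AF and the SF3A and SF3B subunits of the U2 particle recognise its end and branch site, and PRPF proteins act in the U4/U6.U5 particle and in the catalytic steps. SR proteins mostly favour and hnRNP proteins often oppose the use of an exon, and RBM is a naming group with mixed roles. In people, variants in PRPF3, PRPF4, PRPF6, PRPF8 and PRPF31, all general splicing factors, cause retinitis pigmentosa, a degeneration of retinal photoreceptors, and the fish pineal itself contains photoreceptor cells.

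Values are log2 intensities after quantile normalization, and differences are log2 differences ± SE from 1 limma fit to all 69 arrays. "Rose", "fell", "higher" and "lower" below mark an adjusted p under 0.05 over all 15502 probe sets, and genes that also differed at least 2-fold are said to have passed both limits. Median intensity on an array ran from 113.2 to 220.8, and arrays of 1 group correlated at 0.770 to 0.974 over probe sets. The medians ran from 123.8 to 166.9 in larval pineal and from 146.4 to 220.8 in adult pineal. In brain they ran from 130.2 to 168.9 in larval fish and from 113.2 to 182.7 in adults. The highest medians lay in adult pineal, and their part in the changes of counts with scaling was not tested. The pineal marker aanat2 had a lowest, median and highest level of 6.001, 9.69 and 13.35 in pineal against 4.26, 6.44 and 7.36 in brain, and the pineal opsin exorh 6.37, 8.99 and 13.04 against 4.37, 5.56 and 7.24, so the lowest pineal arrays lay within the brain range. One adult brain array, replicate 3 of the 3-month day group, carried the highest sum of 10 photoreceptor markers in brain (12.54, as the log2 of their summed intensity), and without it every member named below as passing both limits still passed them. Of the 101 members, 89 had a mean level of at least 7, as did 8744 of all 15502 probe sets, and snrpb and sf3b4 were among the 12 dimmer ones. In whole tissue, fewer cells of a type and less RNA per cell cannot be told apart.

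The comparison of adult with larval pineal asks how the gland's RNA-processing genes change as it matures. Of the 101 genes, 54 were lower in adult pineal and 4 were higher, and 43 did not pass the adjusted p. That is 53.5% lower and 3.96% higher, against 24.5% lower and 22.9% higher among all 15502 probe sets. Among the 8744 probe sets of mean level 7 or more, 31.6% were lower and 29.7% higher. The median difference was -0.37 over the members and -0.05 over all probe sets. The deposited arrays already share a trimmed mean of 500.1 to 500.2, and "no scaling" or "without scaling" here means no scaling beyond that. Without scaling these medians were -0.25 and 0.28, and with median centring -0.57 and -0.04. The members thus lay below the median of all probe sets under each scaling. Most shifts were modest: 7 members fell and 1 rose past both limits, which 15.6% of all probe sets passed (7.13% as lower and 8.46% as higher).

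**Figure D1:**
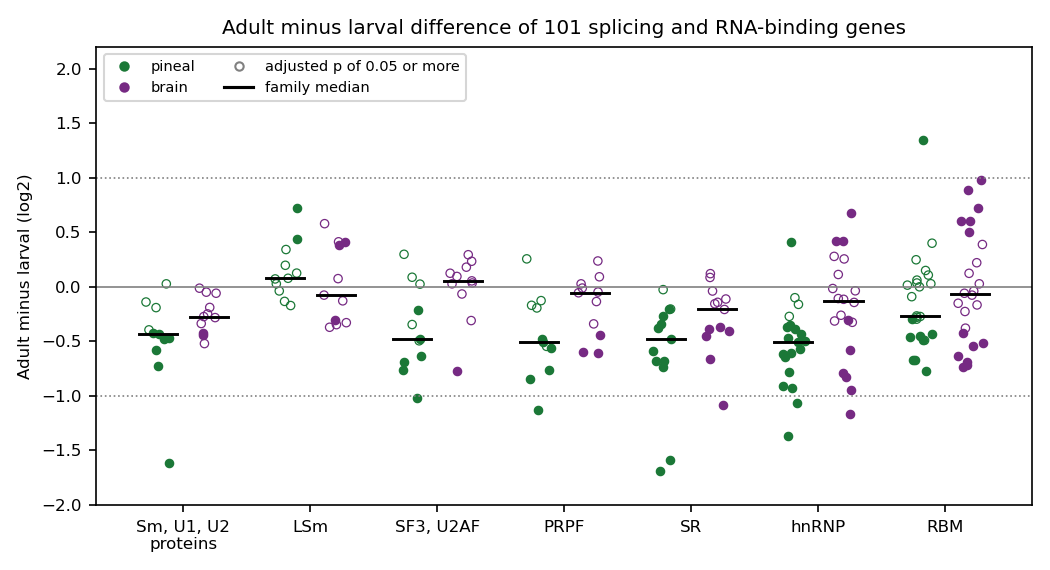
Adult minus larval difference (log2, y axis) of each of the 101 genes by family (x axis), in pineal (green) and brain (purple). Filled points passed an adjusted p of 0.05, black lines are family medians, and dotted lines mark a 2-fold difference. All 13 SR genes lie below 0 in pineal, and the LSm median lies just above it (0.08, but -0.21 under median centring).

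SR proteins bind exons and recruit the core machinery. All 13 SR genes had a negative difference in adult against larval pineal, 11 fell and the family median was -0.48. Under no scaling and under median centring all 13 passed as lower. The exceptions at the reported scaling were srsf1a (-0.20, adjusted p = 0.0864) and srsf2a (-0.02, adjusted p = 0.800). The gene srsf3b, whose mammalian counterpart also links spliced mRNA to nuclear export, ranged over 9.79, 10.57 and 11.48 (lowest, median, highest) in 24 larval pineal arrays and over 8.35, 8.91 and 9.87 in 14 adult ones. The ranges touch only at their ends, and the adult median lies below every larval pineal array. The difference was -1.69 ± 0.12, or 3.22-fold (limma, adjusted p = 1.01e-18). By age, srsf3b averaged 10.4, 10.8 and 10.6 in pineal at 3, 5 and 10 days and then 8.72 at 3 months and 9.14 at 1 to 2 years.

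The gene srsf7a, an SR protein with a zinc finger, had levels of 8.09, 10.20 and 11.50 in larval pineal and 7.16, 8.61 and 9.15 in adult pineal. Its ranges overlap more than those of srsf3b, and the fall was -1.58 ± 0.19 (limma, adjusted p = 1.37e-10). Smaller falls were seen in srsf10b (-0.74), the larger SR genes srsf4 (-0.68) and srsf6b (-0.48), srsf5a (-0.68), srsf2b (-0.59), srsf1b (-0.37), srsf11 (-0.34), srsf6a (-0.27) and srsf5b (-0.20). Paralogs of a pair did not always move alike: srsf2b fell while srsf2a had a difference of -0.02, and srsf5a fell by 0.68 while srsf5b fell by 0.20. The difference between paralogs was not tested, and whether probes of 1 paralog also detect another was not tested.

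The hnRNP proteins coat nascent transcripts, and many repress exons or steer mRNA stability. In adult pineal 16 of 20 were lower and 1, hnrnpa1b, was higher (0.41, adjusted p = 0.00370), though hnrnpa1b turned to -0.04 under median centring. The family median was -0.50, against -0.49 with no scaling and -0.81 with median centring. The gene hnrnpaba, an A/B-type hnRNP, had levels of 13.04, 13.87 and 14.58 in larval pineal and 12.38, 12.79 and 13.16 in adult pineal. Larval and adult arrays barely overlap, and the difference was -1.06 ± 0.09 (limma, adjusted p = 8.33e-17). Its mean was already lower at 10 days (13.4) than at 5 days (14.1), before the 3-month value of 12.8.

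The gene hnrnpr ran from 8.64 through 9.74 to 10.63 in larval pineal and from 7.55 through 8.34 to 8.93 in adult pineal. Only the lowest larval arrays reached the adult range, and the fall was -1.37 ± 0.14 (limma, adjusted p = 1.47e-12). The A/B-type paralog hnrnpabb (-0.92), hnrnpl (-0.91), which binds CA repeats, and hnrnpk (-0.78), which binds C-rich RNA, fell by less than 2-fold. So did hnrnpl2 (-0.64), hnrnpa0b (-0.62), hnrnph1l (-0.60), hnrpkl (-0.57), hnrnpa0a (-0.51), hnrnpul1 (-0.49), hnrnpua (-0.46), hnrnpd (-0.43), hnrnpub (-0.38), hnrnpm (-0.37) and hnrnpa0l (-0.35). The other 3, hnrnph1 (-0.27), hnrnpdl (-0.16) and hnrnpc (-0.10), did not pass the adjusted p.

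Among Sm proteins and proteins of the U1 and U2 particles, 7 of 11 fell, none rose and the median was -0.43 (no scaling -0.31, median centring -0.63). The Sm core gene snrpb was at 6.01, 7.76 and 8.68 in larval pineal and at 4.58, 6.22 and 6.99 in adult pineal, and the larval median lies above every adult array. It fell by 1.61 ± 0.23 on the log2 scale (limma, adjusted p = 1.70e-08). The U1 proteins snrpa (-0.73) and snrpc (-0.47) and the Sm-ring genes snrpd3l (-0.58), snrpg (-0.48), snrpe (-0.43) and snrpd1 (-0.42) also fell. The differences of snrpb2 (-0.39), snrpd2 (-0.19), snrpf (-0.14) and snrpd3 (0.03) did not pass.

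Of the 11 SF3 and U2AF genes, 6 fell and the median was -0.48, but without scaling only 2 fell and 1 rose, with a median of -0.24. The call on sf3b4, an SF3B subunit, rests on a dim probe set with levels of 5.01, 6.59 and 8.49 in larval and 4.34, 5.99 and 6.96 in adult pineal, ranges that overlap over much of their width. Its difference was -1.02 ± 0.27 (limma, adjusted p = 0.00105), fell short of 2-fold on leaving out any 1 of 14 particular arrays (lowest size -0.92), and was -0.02 (adjusted p = 0.963) on a second probe set of the gene. Both U2AF subunits fell: u2af2b, which binds the pyrimidine tract, at -0.69 ± 0.12 (adjusted p = 1.26e-06) and u2af1, which reads the end of the intron, at -0.48 ± 0.16 (adjusted p = 0.0119). In the SF3 particles sf3b2 (-0.76), sf3a1 (-0.64) and sf3b1 (-0.21) fell, while sf3b5 (-0.49), sf3a3 (-0.34), sf3b3 (0.03), sf3a2 (0.09) and sf3b6 (0.30) did not pass.

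PRPF genes fell in 6 of 11 cases with a median of -0.51, and in 3 of 11 with a median of -0.25 without scaling. The gene prpf39, whose mammalian counterpart works with the U1 particle, ranged over 8.69, 9.54 and 10.28 in larval and 7.53, 8.24 and 9.05 in adult pineal. All larval arrays lie above the adult median, with overlap at the edge, and the fall was -1.13 ± 0.16 (limma, adjusted p = 7.74e-09). Of the 5 counterparts of the retinitis pigmentosa genes, prpf4 (-0.76, adjusted p = 0.000227), prpf8 (-0.51, adjusted p = 0.00343) and prpf3 (-0.48, adjusted p = 0.00159) fell, while prpf31 (-0.55, adjusted p = 0.113) and prpf6 (0.26, adjusted p = 0.159) did not pass. The spliceosome-activation genes prpf38b (-0.85) and prpf38a (-0.56) fell. The kinases prpf4ba (-0.19) and prpf4bb (-0.13) and the ubiquitin ligase prpf19 (-0.17) did not pass.

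**Figure D2:**
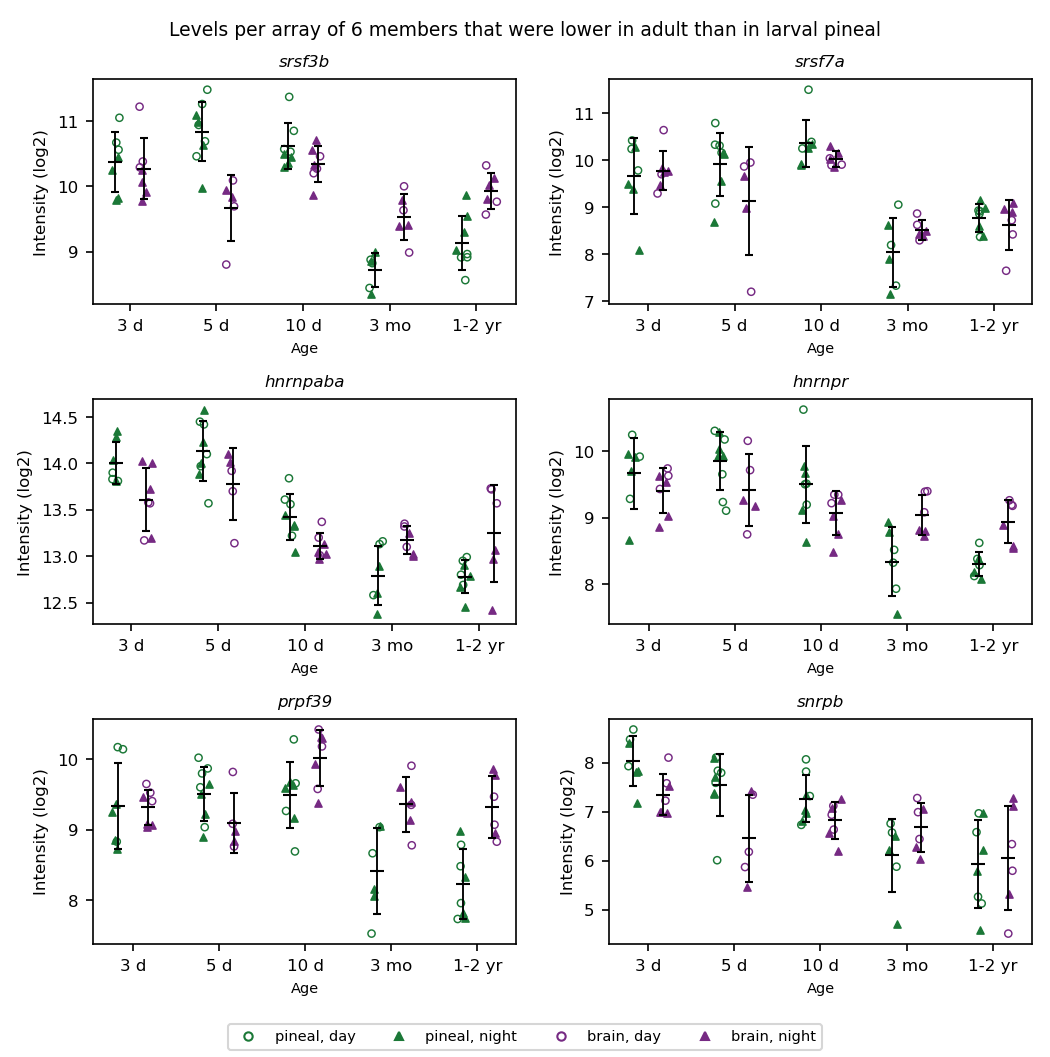
Log2 intensity (y axis) by age (x axis) on every array for 6 genes that were lower in adult than in larval pineal, with pineal in green and brain in purple, open circles for day and filled triangles for night. Black bars are the mean ± SD of an age and tissue. The drop of srsf3b in pineal lies between 10 days (mean 10.6) and 3 months (mean 8.72).

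Of 11 LSm genes, 2 were higher in adult pineal and 0 lower in the limma fit, and these 2 were also the ones with an unadjusted p under 0.05. The LSm median was 0.08, turning to -0.21 with 1 higher and 3 lower under median centring, and the difference from the other families was not tested. The gene lsm4, of the ring on U6 RNA and of the ring that directs mRNA decay, rose by 0.44 ± 0.11 (limma, adjusted p = 0.000630). The gene lsm11, of the U7 particle that processes histone mRNA, rose by 0.72 ± 0.27 (limma, adjusted p = 0.0228), from a dim probe set. The others ranged from -0.17 in lsm12b to 0.34 in lsm14aa, with lsm1, lsm14ab, lsm14b, lsm7, lsm8, lsm12a and lsm6 between them.

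RBM genes were divided, with 8 of 24 lower, 1 higher and a median of -0.27 in pineal. Without scaling 6 were lower and 5 higher (median -0.11), and with median centring 13 were lower and 2 higher (median -0.43). The one that rose at the reported scaling was rbm47, an RNA-binding protein that in mammals acts as a cofactor of C-to-U mRNA editing. It was at 6.54, 8.58 and 9.48 in larval pineal and at 9.04, 9.64 and 10.80 in adult pineal, so the adult median lies above every larval array. The rise was 1.35 ± 0.18, or 2.54-fold (limma, adjusted p = 2.05e-09). Lower in adult pineal were rbm45 (-0.77), the U2AF-related rbm39b (-0.67), rbm22 (-0.67), which sits near the spliceosome's active site, rbm28 (-0.49), rbm12bb (-0.46), rbm7 (-0.45), which brings nuclear RNA to the exosome, rbm26 (-0.43) and rbm4.3 (-0.29). The other 15 ran from -0.49 in rbm33b to 0.40 in rbm44, among them the exon junction gene rbm8a (0.02) and the m6A methylation cofactor rbm15 (-0.09).

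Values of other cell types moved beside these differences. In adult against larval pineal, 10 of 10 photoreceptor markers passed both limits as higher (median 3.01), 8 of 11 immune markers did so too (median 2.47), as did 5 of 7 erythrocyte markers (median 3.08, the other 2 lower) and 7 of 15 skin markers (median 0.51, with 2 lower). Markers of cycling cells and of neurons mostly went the other way. As lower, 6 of 17 of the first (median -0.69) and 6 of 10 of the second (median -1.28) passed both limits. Of the neuronal markers 1 passed both as higher. As the log2 of summed intensity, the cycling list ran from 10.82 to 13.83 in larval and from 11.3 to 12.24 in adult pineal, and the neuronal list from 14.17 to 15.28 and from 13.97 to 15.16. Their part in the falls of the splicing genes was not tested.

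In brain, 26 of 101 members were lower in adult than in larval fish and 11 were higher, or 25.7% and 10.9%, against 16.3% and 19.1% of all probe sets. Among the 8744 probe sets of mean level 7 or more, 22.7% were lower, near the members' share, and 28.2% were higher. With median centring the counts of members were 16 lower and 14 higher, against 14.5% and 20.7% of all probe sets. Passing both limits were 2 members, against 11.6% of all probe sets. The gene hnrnpa0b, an A0-type hnRNP, had levels of 10.32, 12.65 and 13.58 in larval and 10.66, 11.16 and 12 in adult brain. Its larval range covers the adult one, and the difference was -1.16 ± 0.12 (limma, adjusted p = 3.77e-12).

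By age, the mean ± SD of hnrnpa0b in brain at the larval ages of 3, 5 and 10 days was 13.2 ± 0.20 (n = 7), 12.8 ± 0.47 (n = 5) and 11.2 ± 0.57 (n = 7), and the adult means were 11.4 and 11.2. In pineal it went from 13.4 and 13.2 to 11.7 at 10 days and 12.3 and 11.99 in adults. This drop between 5 and 10 days is given as a description. Of 3 further probe sets of hnrnpa0b, 1 gave -0.79 (adjusted p = 0.000135) for adult against larval brain, another 0.25 (adjusted p = 0.238) and the last -0.70 (adjusted p = 0.0152). They disagree in size and direction elsewhere too: the last rose by 1.04 in adult against larval pineal, where the main one fell.

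The gene srsf7a also fell in brain, from 7.201, 9.86 and 10.64 to 7.65, 8.56 and 9.09, by -1.09 ± 0.21 (limma, adjusted p = 2.00e-05), and by -0.90 (adjusted p = 0.00301) without the 10-day arrays. Below 2-fold, hnrnpk fell by 0.95 ± 0.10 (adjusted p = 2.75e-12) and its highest adult brain array (11.08) lay just below its lowest larval one (11.10). The U2AF subunit gene u2af2b (-0.77) was the only other member without overlap, with adult brain at 10.73, 10.98 and 11.18 and larval brain at 11.29, 11.70 and 12.19. Over all probe sets 3.73% did not overlap between adult and larval brain. Also lower were hnrnpa0l (-0.82), hnrnpabb (-0.79), rbm7 (-0.73), rbm47 (-0.72), rbm4.3 (-0.69), srsf6b (-0.66), rbm45 (-0.64), prpf38b (-0.60) and prpf3 (-0.60). Higher in adult brain were the splicing regulators rbm25a (0.98), rbmx (0.88), rbm4.1 (0.72), hnrnpa0a (0.68), rbm5 (0.60), rbm6 (0.60), rbm17 (0.51), hnrnpd (0.42), which binds AU-rich mRNA, and hnrnpdl (0.42), with lsm6 (0.41) and lsm4 (0.38). In brain 15 of 15 muscle markers (median -4.41) and 15 of 15 skin markers (median -2.68) passed both limits as lower in adults, as did 8 of 17 markers of cycling cells (median -0.98). Higher past both limits were 7 of 10 neuronal markers (median 1.09) and 5 of 7 erythrocyte markers (median 1.85, the other 2 lower). Their part in these differences was not tested.

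Set side by side, 22 genes were lower with age in both tissues, which is 40.7% of the 54 that fell in pineal and 84.6% of the 26 that fell in brain. Over all probe sets those lower in both tissues made up 27.5% of the pineal falls and 41.3% of the brain falls, while a larger share of members than of all probe sets fell in pineal (53.5% against 24.5%). One, lsm4, rose in both. The genes hnrnpa0a and hnrnpd fell in pineal and rose in brain, rbm47 rose in pineal and fell in brain, and 32 genes passed in neither tissue, as did 38.4% of all probe sets.

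Whether the change with age differed between tissues was tested as an interaction, the adult minus larval difference in pineal minus that in brain. It passed the adjusted p as negative for 24 members (23.8%, against 18.9% of all probe sets) and as positive for 6 (5.94%, against 18%). Among the 8744 probe sets of mean level 7 or more, 26.8% were negative and 23.9% positive, so the members' negative share was not above that of bright probe sets. With median centring 55 members were negative and 1 positive, against 23.9% and 16% of all probe sets. Without scaling 12.4% of all probe sets were negative and 28.5% positive. There 6 of 20 hnRNP genes passed as negative (8 at the reported scaling), and SR genes kept 4. RBM genes had 5 negative and 4 positive, in place of 5 and 2. Of 11 snrp genes 0 passed, in place of 2, and their median turned from -0.18 to 0.03. At the reported scaling 6 members passed both limits, against 22.8% of all probe sets. For rbm47 the difference of differences was 2.07 ± 0.26 (limma, adjusted p = 1.37e-09). For srsf3b it was -1.30 ± 0.18 (adjusted p = 2.52e-08), the brain values of srsf3b being 8.80, 10.20 and 11.22 in larval and 8.99, 9.77 and 10.32 in adult fish. For hnrnpr it was -1.06 ± 0.21 (adjusted p = 4.22e-05), with brain at 8.49, 9.27 and 10.16 in larval and 8.55, 8.99 and 9.40 in adult fish. The hnrnpr interaction fell short of 2-fold without scaling (-0.95, limma, adjusted p = 0.000322) and on leaving out any 1 of 2 particular arrays. In brain srsf3b fell by 0.39 (adjusted p = 0.0193) and hnrnpr had a difference of -0.31 that did not pass (adjusted p = 0.119), and for both the adult brain arrays lie within the larval range. Past both limits in the same interaction, as positive, were 15 of 15 muscle markers (median 4.81) and 15 of 15 skin markers (median 3.29). For muscle the adult minus larval median was -4.41 in brain and 0.23 in pineal. So were 10 of 10 photoreceptor markers (median 2.48), 9 of 11 immune markers (median 1.955) and 6 of 7 erythrocyte markers (median 1.23). Of 10 neuronal markers 8 passed as negative and 1 as positive (median -2.32). The part of these markers in the values above was not tested.

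For hnrnpa0a the interaction was -1.19 ± 0.19 (limma, adjusted p = 5.09e-07), and 2 further probe sets gave -0.72 (adjusted p = 0.000310) and -1.47 (adjusted p = 8.49e-07). The weaker interactions were snrpb (-1.09 ± 0.34, adjusted p = 0.00805) and sf3b4 (-1.15 ± 0.39, adjusted p = 0.0169), both dim. A second probe set of sf3b4 gave -0.07 (limma, adjusted p = 0.907). The interaction of snrpb fell short of 2-fold on leaving out any 1 of 4 particular arrays (lowest size -0.93). Without scaling snrpb gave -0.50 (adjusted p = 0.244) and sf3b4 -0.50 (adjusted p = 0.330). The brain levels of snrpb were 5.46, 7.004 and 8.11 in larval and 4.51, 6.39 and 7.28 in adult fish. Short of 2-fold, prpf39 (-0.9985), rbm4.1 (-0.9999), rbm5 (-0.90), rbm6 (-0.87), rbm25a (-0.87), hnrnpd (-0.85), hnrnpaba (-0.77) and srsf5a (-0.76) were also negative. The positive ones were lsm14aa (0.69), hnrnpa1b (0.55), hnrnpa0b (0.54), hnrnpa0l (0.48) and rbm4.3 (0.40) beside rbm47, and all of these but lsm14aa and rbm47 turned negative under median centring.

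The comparison of pineal with brain asks which genes set the gland apart. Over all ages 1 member, rbm47, passed both limits (1.14 ± 0.13, limma, adjusted p = 2.13e-11), against 5.79% of all probe sets. By the adjusted p alone 26 members (25.7%) were higher and 11 (10.9%) lower, against 17.8% and 19.6% of all probe sets. Among the 8744 probe sets of mean level 7 or more, 24.3% were higher, near the members' share, and 29.3% were lower. Median centring turned the split of members to 11 and 15, against 14.9% and 22.5% of all probe sets. In larval fish 0 passed both limits, against 4.02% of all probe sets. An unadjusted p under 0.05 was seen in 35 members, and the share of all probe sets at that rule is not given here. By the adjusted p alone 20 members were higher in larval pineal than in larval brain and 1, lsm11, was lower, or 19.8% and 0.99% against 7.70% and 8.92% of all probe sets. Among those of mean level 7 or more, 10.9% were higher and 12.6% lower. All 11 snrp genes had a positive larval difference under each scaling, with a median of 0.37, and snrpb (0.74), snrpb2 (0.57), snrpd1 (0.38), snrpa (0.35) and snrpe (0.31) passed. These 5 became 1 without scaling. Among 20 hnRNP genes 8 were higher in larval pineal, led by hnrpkl (0.54) and hnrnpabb (0.46). The SR genes srsf3b (0.50), srsf2b (0.46) and srsf5a (0.39), sf3b4 (0.79), lsm1 (0.42), rbm4.2 (0.36) and rbm45 (0.27) completed the list. The count is sensitive to 1 array, since 10 members passed without replicate 1 of the 5-day brain night group and 13 without replicate 1 of the 3-day brain day group. The share of all probe sets passing in those fits is not given here, so whether the array as a whole moved alike cannot be told. Of 15 muscle markers 15 passed both limits as lower in larval pineal than in larval brain (median -4.25), with summed levels of 9.94 to 14.99 against 13.6 to 17.47, and their part in these differences was not tested.

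In adults 13 members were higher and 20 lower in pineal, or 12.9% and 19.8% against 21.5% and 23.6% of all probe sets. Among those of mean level 7 or more, 28% were higher and 33.8% lower. With median centring 5 members were higher and 42 lower, against 19% and 28% of all probe sets, and without scaling 21 and 20, against 33.4% and 17.2%. Both limits were passed by 4 members, against 21.0% of all probe sets (11.0% as higher and 10.1% as lower). The gene rbm47 had levels of 9.04, 9.64 and 10.80 in adult pineal and 5.94, 7.50 and 7.96 in adult brain. The groups do not overlap, and the difference was 2.38 ± 0.21, or 5.21-fold (limma, adjusted p = 9.41e-16). In larval fish its ranges were 6.54 to 9.48 in pineal and 7.204 to 8.88 in brain, and the larval difference was 0.32 (adjusted p = 0.194).

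The gene hnrnpa0a was the reverse, at 11.03, 11.38 and 12.08 in adult pineal and 12.35, 12.89 and 13.26 in adult brain. Again the groups do not overlap, and the difference was -1.37 ± 0.15 (limma, adjusted p = 4.82e-12). Its other 2 probe sets gave -0.35 (adjusted p = 0.0230) and -0.54 (adjusted p = 0.0159). Another gene without overlap was hnrnpa0l, at 13.05, 13.15 and 13.52 in adult pineal and 11.95, 12.42 and 12.93 in adult brain, a difference of 0.77 ± 0.10 (adjusted p = 1.77e-09). Its probe set carries a suffix for sequences shared between transcripts, and whether it also detects another A0 gene was not tested. The A0 genes thus differed in opposite directions, since hnrnpa0b was also higher in adult pineal (0.88 ± 0.13, adjusted p = 4.62e-08), although its other probe sets gave 0.10, -0.63 and 0.43. For the other 98 members adult pineal and adult brain overlapped, and over all probe sets 10.2% did not overlap.

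**Figure D3:**
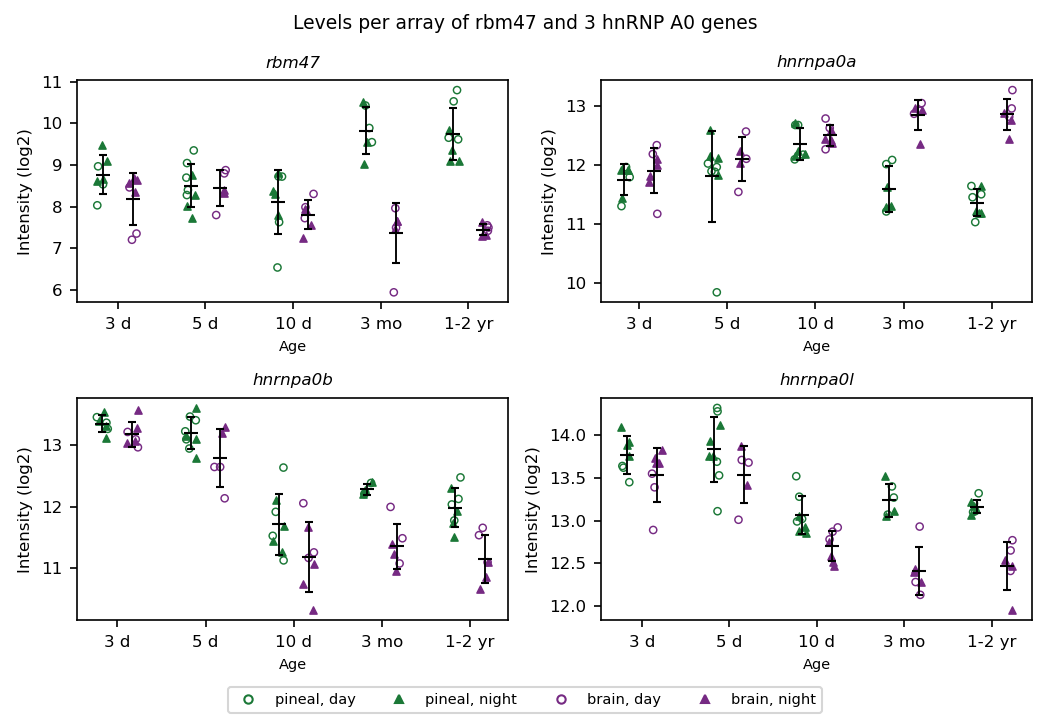
Log2 intensity (y axis) by age (x axis) on every array for rbm47 and the 3 hnRNP A0 genes, with pineal in green and brain in purple, open circles for day and filled triangles for night. Black bars are the mean ± SD of an age and tissue. For rbm47 the tissues separate at 3 months (means 9.83 and 7.36) and at 1 to 2 years (9.75 and 7.45).

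The gene prpf39 was lower in adult pineal, at 7.53, 8.24 and 9.05 against 8.78, 9.37 and 9.91 in brain, by -1.02 ± 0.18 (limma, adjusted p = 3.01e-06), and did not reach 2-fold once any 1 of 12 particular arrays was dropped. The gene lsm14aa, whose mammalian counterpart represses translation in cytoplasmic granules, was higher, at 9.06, 9.85 and 10.58 against 8.11, 8.79 and 9.36, by 1.096 ± 0.21 (adjusted p = 8.55e-06), with 0.42 (adjusted p = 0.0611) on a second probe set. Most adult pineal arrays of each gene lie outside the brain range, with some overlap. Below 2-fold, the paralog lsm14ab was also higher (0.44), though -0.05 under median centring, and rbm4.3 (0.60), hnrnpa1b (0.57), hnrnpk (0.52) and rbm4.2 (0.42) were higher, the last 2 turning to -0.01 and -0.11 under median centring. Lower were rbmx (-0.998, just short of 2-fold), hnrnpd (-0.92), rbm25a (-0.91), rbm6 (-0.91), srsf3b (-0.80), rbm5 (-0.76), rbm4.1 (-0.73), hnrnpr (-0.67) and prpf4 (-0.67). The 3 rbm4 genes therefore did not share a direction in adults.

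**Figure D4:**
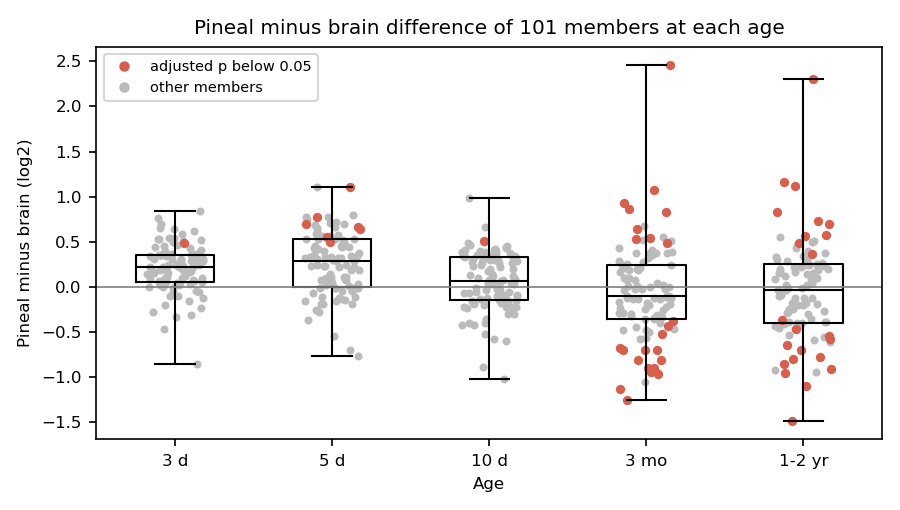
Pineal minus brain difference (log2, y axis) of each of the 101 genes at each age (x axis), with boxes for the quartiles and whiskers to the lowest and highest gene. Red points passed an adjusted p of 0.05. The medians are 0.22, 0.28 and 0.07 at 3, 5 and 10 days and -0.10 and -0.03 at 3 months and 1 to 2 years.

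At the 5 single ages, from 3 days to 1 to 2 years, 1, 7, 1, 24 and 23 members passed the adjusted p, against 6.81%, 7.17%, 5.41%, 30.5% and 32.1% of all probe sets, so the rise in the count with age was shared by the array as a whole. The gene rbm47 differed by 2.46 at 3 months and 2.30 at 1 to 2 years, and hnrnpa0a by -1.26 and -1.49. At 5 days srsf3b was higher in pineal by 1.11, while at both adult ages it was lower, by -0.81 and -0.79. Cell-type markers differed strongly in adults: 15 of 15 skin markers (median 3.41) and 7 of 11 immune markers (median 1.81) passed both limits as higher in pineal. Of 10 neuronal markers 8 passed both as lower and 1 as higher (median -2.70). The skin list summed to 15.3 to 17.16 in adult pineal and 11.6 to 13.93 in adult brain, ranges that do not meet. Their part in the differences of rbm47, hnrnpa0a and the other members was not tested.

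Splicing genes outside the name rule were read from lists chosen with earlier results of these data known. Of 46 other core spliceosome genes measured, 1 was higher and 0 lower in adult pineal than in brain past both limits (wbp4, 1.05 ± 0.31, adjusted p = 0.00358), and with age in pineal wbp4 rose by 2.65 while puf60a, a U2AF partner, fell by 1.21. In 23 genes of the exon junction, mRNA export and SR kinases, the SR protein kinases clk4a (-1.14) and clk2a (-1.12) were lower in adult pineal. Of 12 snRNP assembly genes smn1, which loads Sm rings, fell with age in pineal by 1.00 (adjusted p = 0.000251). Among 33 other hnRNP-like genes the exon repressors ptbp1a (1.46) and ptbp1b (1.08) were among 4 that were higher in adult pineal. The genes raly (-1.78) and the paraspeckle gene pspc1 (-1.03) were among 3 that were lower. Of all probe sets 11.0% were higher and 10.1% lower in adult pineal than in brain past both limits. With age in pineal these shares were 8.46% and 7.13%.

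Of 16 tissue-enriched splicing regulators measured, 3 were higher and 8 lower in adult pineal than in brain past both limits, beside the 11.0% and 10.1% of all probe sets given above. The list's median was -0.72. The epithelial regulators esrp1 and esrp2 were higher by 2.53 ± 0.21 (adjusted p = 1.70e-16) and 2.37 ± 0.23 (adjusted p = 1.05e-13). The neuronal regulators nova2 (-2.80 ± 0.21, adjusted p = 3.87e-18) and rbfox1 (-2.06 ± 0.22, adjusted p = 4.98e-12) were lower. With age in pineal nova2 fell by 2.59, while esrp1 and esrp2 had differences of 0.08 (adjusted p = 0.742) and -0.07 (adjusted p = 0.788). With age in brain esrp1 and esrp2 fell by 1.98 and 2.10, next to the fall of the 15 skin markers given above.

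The comparison of night with day asks whether these genes follow the daily cycle. The limma test called 0 of 101 members in pineal, where 2.64% of all probe sets passed, and 9 members had an unadjusted p under 0.05. In brain it also called 0, against 0.922%, with 14 at an unadjusted p under 0.05. Some members did pass in brain with array weights or with brain arrays fitted alone, where 9.36% and 2.44% of all probe sets passed. The counts of members under other processing, in both tissues, are given in the last section. The night-day difference did not pass as differing between tissues for any member (0 of 101, against 0.129%, with 3 at an unadjusted p under 0.05), nor, by a limma F-test, over the 5 ages in pineal (0 of 101, against 0.258%). The share of all probe sets at an unadjusted p under 0.05 is not given here, so the counts of 9, 14 and 3 are not set against it. The median night-day difference of the members was -0.05 in pineal and -0.0012 in brain. Nearest to the threshold in pineal were lsm14aa (0.55 ± 0.17, adjusted p = 0.0711), srsf1b (0.31 ± 0.10, adjusted p = 0.0739) and rbm39a (-0.37 ± 0.12, adjusted p = 0.0787), and in brain srsf10b (-0.64 ± 0.18, adjusted p = 0.0580).

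At single ages and in single tissues 1 member passed, hnrnpaba in brain at 1 to 2 years, where 0.884% of all probe sets did. The share of all probe sets in the other groups, in order of age, was 1.3%, 0.419%, 0.587%, 0.252% and 0.419% in pineal and 0.0839%, 0.187%, 0.071% and 0.161% in brain. The 3 day arrays of hnrnpaba in brain at 1 to 2 years were at 13.57, 13.72 and 13.73 and its 3 night arrays at 12.42, 12.97 and 13.07. Night was lower by -0.85 ± 0.21 (limma, adjusted p = 0.0267). Of these day arrays, replicates 1 and 2 had 3'/5' ratios of the GAPDH control of 13.85 and 17.2, the highest of the series, while replicate 3 and the night arrays lay between 1.27 and 1.41. In a fit without the arrays of ratio above 3, which left 1 day array assumed to vary like the other groups, the difference was -0.91 and did not pass (adjusted p = 1). This ratio, a measure that RNA degradation can raise, passed 3 on 10 day arrays and 1 night array, and without those 11 arrays 2 members were lower at night in pineal and 0 passed in brain, against 2.58% and 0.245% of all probe sets.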

How the data were processed

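Total RNA was amplified into biotin-labelled cDNA and hybridized, 1 sample per array, per the labels' protocols. The deposited values are linear intensities, 1 per probe set and array. The mean intensity of each deposited column without its highest and lowest 2% lay at 500.1 to 500.2, so the columns share a common scale; the sources used here do not give the algorithm that combined probes or any background correction. From these intensities log2(value + 16) was computed and quantile normalized, with 115 control probe sets set aside. Genes were named from the platform annotation, of which 0 member symbols had since changed. A probe set is read as its gene, 21 members had several, and 3 members' probe sets carry a suffix for sequences shared between transcripts.

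Comparisons used limma 3.58.1 in R 4.3.3: 20 group means, trended moderated variance (49 residual and 14.3 prior degrees of freedom), ages and sampling times weighted equally, two-sided p-values adjusted by Benjamini-Hochberg over 15502 probe sets. Tissue and stage comparisons used an adjusted p below 0.05 with and without a 2-fold limit, night-day comparisons the adjusted p alone. Per the labels, samples are biological replicates. Any member could be named; levels per group are given for the largest changes past both limits, for interactions past both limits and for the most significant gene of each family. In other lists up to 4 genes past the limits were named. The families, members and lists were chosen with earlier results of these data known. The steps were tested on simulated data with known changes for adult against larval pineal, in 100 of 15502 probe sets for each size of change. In the measured data 47.4% of all probe sets passed the adjusted p in that comparison. The simulated setting thus differs, and its recovery rates do not carry over to these data. Log2 changes of 1.5 were recovered at 100% with and without the 2-fold limit. Changes of 0.5 were recovered at 35% by the adjusted p alone and at 1% with the 2-fold limit. In the simulated setting a change of that size could be present and not pass. Alternatives covered scaling, the added constant (1 or 64), a filter on mean level, subsets of arrays, array weights, RNA quality, a second probe set, a replicate block and each array left out. No genome coordinates or sequences are given.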

Additional observations from a re-analysis of the deposited data

Results flagged for a closer look

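Single arrays stood far from the rest of their group in 13 of 99 sets of 4 or 5 arrays, formed from the 11 members past both limits in at least 1 tissue or stage comparison; chance alone flags about 1 in 20 such sets. In hnrnpa0a these were replicate 2 of the 10-day pineal night group at 12.70 (next 12.23), replicate 4 of the 1 to 2 year pineal night group at 11.64 (next 11.22), replicate 2 of the 3-day pineal night group at 11.44 (next 11.91) and replicate 2 of the 5-day pineal day group at 9.84 (next 11.88). That last array was also low in lsm14aa, at 6.58 with the next at 8.90. The GAPDH 3'/5' ratio was 3.70 on that array, 6.68 on replicate 2 of the 10-day pineal night group and 10.38 on replicate 2 of the 10-day pineal day group, and its part in these values was not tested. In prpf39, replicate 1 of the 10-day pineal night group lay at 9.17 and replicate 4 of the 3-day brain night group at 9.46. In sf3b4, replicate 1 of the 3-day brain night group lay at 5.21, next to 6.91. In snrpb, replicate 3 of the 3-day brain night group lay at 7.53 and replicate 1 of the 5-day pineal day group at 6.01, next to 7.59. In srsf3b, replicate 4 of the 1 to 2 year pineal day group lay at 8.56, and in srsf7a replicate 2 of the 10-day pineal day group lay at 11.50 and replicate 2 of the 1 to 2 year pineal day group at 8.37.

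The adult minus larval difference differed between pineal and brain by an interaction test past both limits in 6 genes, at 2.07 in rbm47, -1.30 in srsf3b, -1.19 in hnrnpa0a, -1.15 in sf3b4, -1.09 in snrpb and -1.06 in hnrnpr (limma, adjusted p from 1.37e-09 to 0.0169). On a second probe set hnrnpa0a gave -0.72 and sf3b4 -0.07. Without scaling sf3b4 (-0.50), snrpb (-0.50) and hnrnpr (-0.95) fell short of 2-fold.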

How the results depend on the processing

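For the members past both limits, and hnrnpaba by night in the oldest brains, 209 of 237 values under alternatives other than leaving out an array kept their call, 28 lost it and 0 turned direction. In the setting with a second probe set, a member with only 1 kept its main values, so its call there could not change. Probe sets beyond the second were not part of that setting. A further probe set of hnrnpa0b had the opposite direction in adult against larval brain, as given above. On a second probe set sf3b4, hnrnpa0a, lsm14aa and hnrnpa0b lost calls. With 1 array left out 32 of 1449 values lost their call and 0 turned direction. Among members past the adjusted p alone, 8 differences turned under median centring and are named above. The counts of members past both limits depended on scaling. Percentages in brackets below are the shares of all probe sets called under the same setting. Without scaling, adult pineal against brain gave 7 members (25.1%) in place of 4 (21%), and with median centring 9 (22.5%). Median centring also gave 17 members (16.3%) in place of 8 (15.6%) in adult against larval pineal. In the stage change by tissue it gave 14 (24.7%) in place of 6 (22.8%). By the adjusted p alone it gave 56 there (39.9%) in place of 30 (36.9%). Without scaling the split by the adjusted p was 9 higher (36.8%) and 43 lower (15.4%) in adult against larval pineal. Without scaling the split in the stage change by tissue past both limits was 3 and 3 (27.4% in either direction). Over all ages, median centring turned 26 higher and 11 lower in pineal than in brain into 11 and 15. Past both limits, median centring gave 2 higher and 0 lower in adult brain (12.7% in either direction for adult against larval brain). An added constant of 1 gave 1 member in larval pineal against brain (6.19%). A constant of 64 gave 3 in the stage change by tissue (15.2%) and 1 in brain by night (1.06%). The filter on mean level gave 3 members by night in pineal (5.42% of the 8744 probe sets kept) and 1 in brain (1.81%). Array weights gave 57 by the adjusted p in adult pineal against brain (54.8%) and 56 in adult against larval brain (47.9%). By night they gave 1 in pineal (2.48%) and 16 in brain (9.36%). With the GAPDH ratio as a covariate 1 member passed by night in pineal (2.78%), and without arrays of ratio above 3, 2 did (2.58%). Fitting brain arrays alone gave 4 by night in brain (2.44%), and a second probe set gave 1 past both limits in adult against larval brain (11.6%). Chosen after seeing the data, leaving out the 10-day arrays gave 13 members in adult against larval pineal (16.9%). It gave 5 in brain (14.3%) and 11 in the stage change by tissue (23.2%). With each array left out in turn, counts by the adjusted p in larval pineal against brain ran from 10 to 27, and night-day counts from 0 to 1 in pineal and from 0 to 2 in brain. Shares of all probe sets are not given for those fits. Replicate numbers were not taken as pairs in the reported fit. Of same-numbered arrays of the tissues 11 of 31 pairs correlated above 0.1. Of day and night pairs 0 of 18 in pineal and 2 of 14 in brain did so. Of 31 pineal arrays 20 correlated best with the brain array of their own number. The data thus hold signs of pairing between tissues that the reported fit leaves out. The replicate block gave 8 members past both limits in adult against larval pineal (15.6%) and 5 in adult pineal against brain (21%). It gave 8 in the stage change by tissue (22.9%), and 0 by night in pineal (2.68%) and in brain (0.922%). The causes of these changes were not tested. The number of arrays limits precision. The interactions of the dim probe sets of sf3b4 and snrpb were -0.50 and -0.50 without scaling (adjusted p = 0.330 and 0.244) and -0.92 and -0.93 with median centring (adjusted p = 0.0592 and 0.0233). That of hnrnpr was also short of 2-fold with an added constant of 64 (-0.96) and without arrays of GAPDH ratio above 3 (-0.95).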
